A study of Homo sapiens with 3 samples.

Results

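U8 and U3 are box C/D small nucleolar RNAs (snoRNAs), and the windows described here belong to U8 (SNORD118) and to RNU3P3, a copy of U3. The 2 genes were chosen by their uridylated reads, as the snoRNA-class entries whose windows hold the most of them. They have 3 windows, 2 in SNORD118 and 1 in RNU3P3, of 19 windows in the snoRNA class and 1533 windows in the whole table. CLIP (crosslinking and immunoprecipitation) recovered RNAs bound by DIS3L2 D391N, a catalytically dead form of the exoribonuclease that degrades RNAs with untemplated 3′ uridines. The protein was Flag-tagged and overexpressed from an inducible transgene in 1 stable line, named HEK293 in the labels and HEK293T-Rex in the methods, of human embryonic kidney origin. All 3 libraries carry the label "Overexpressed DIS3L2 D391N mutant", and no control group was used here. The file gives unique reads and uridylated (U+) reads per window of 50 nt, already summed over the libraries, so no value has a replicate SD, and intervals are 95% Wilson intervals for counting error only.

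Most snoRNAs guide the chemical modification of ribosomal RNA, but U8 and U3 act in another way. Both pair with the precursor of ribosomal RNA and are needed for its cleavage, U8 for the RNAs of the large ribosomal subunit and U3 for the RNA of the small one. Both are made from their own promoters by RNA polymerase II, receive a cap, and are trimmed at the 3′ end before they work in the nucleolus. Boxes C and D are short sequence elements at which the core snoRNA proteins assemble. U3 has several near-identical functional genes and many scattered copies, most of them regarded as pseudogenes.

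The stretches below are the ones on which the results turn. The first shows U8 on both sides of the border between its windows, with the box C hexamer TGATGA in capitals. It is 30 nt long, at chr17:8076835-8076864 on the minus strand of GRCh37/hg19, nt 42 to 71 of the exon, and the border follows nt 56. The border is set by the fixed grid of windows, and the counts do not show where within a window reads end.
U8 (SNORD118): gcagattagaacaTGATGAttggagatgca
The next lines show the U3-type windows, each 50 nt, that hold the most unique reads, and the one in a SNORD3 gene, since their likeness to U3 bears on how their reads can be assigned. In the RNU3P3 window (chr14:85738300-85738349, plus strand) capitals mark the bases that differ from SNORD3A, and in the SNORD3A stretch (chr17:19091353-19091402, plus strand) the same positions are in capitals. In the last lines (chr9:90989200-90989249, plus strand, and chr17:19015850-19015899, minus strand) capitals mark bases that differ from SNORD3A.
RNU3P3: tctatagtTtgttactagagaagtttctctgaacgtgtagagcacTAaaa
SNORD3A: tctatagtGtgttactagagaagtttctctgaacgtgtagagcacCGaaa
U3 copy ENSG00000252299: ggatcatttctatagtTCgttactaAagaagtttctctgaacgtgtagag
SNORD3D: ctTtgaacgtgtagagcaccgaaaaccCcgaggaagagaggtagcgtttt

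Of the U+ reads counted in the 2 listed windows of U8, almost all lay in the upstream window. SNORD118 (ENSG00000200463) is a single exon of 134 nt in the GENCODE annotation, at chr17:8076772-8076905 on the minus strand (RefSeq gives it 137 nt). Its upstream window, at 8076850 to 8076899, covered nt 7 to 56. Of its 46846 unique reads 20012 carried a U tail, which makes the U+ fraction 42.7% (interval 42.3 to 43.2%). The downstream window, at 8076800 to 8076849, covered nt 57 to 106, and 97 of its 6329 unique reads were uridylated, or 1.53% (interval 1.26 to 1.87%). Both windows were therefore deep, but only the one at the 5′ side carried tails in a large share of its reads. The remaining 28 nt at the 3′ end of U8, which hold box D at nt 130 to 133, lay in no listed window. Since the table favours tailed windows, the U+ reads of that part are unknown.

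**Figure D1:**
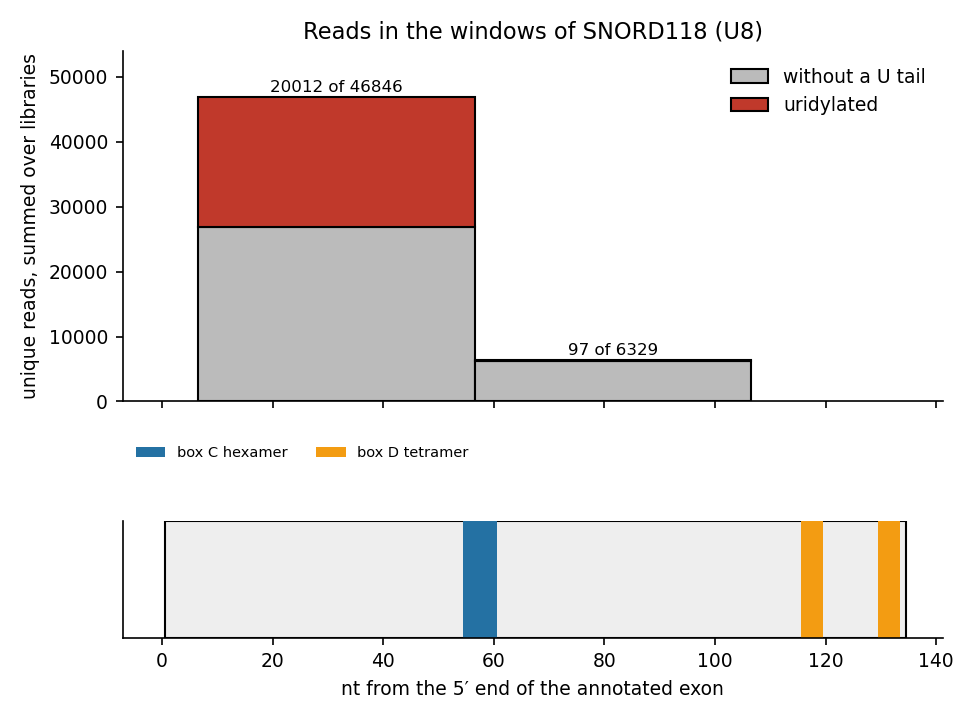
Unique reads in the windows of SNORD118 (upper panel, reads summed over the libraries, split into reads with and without a U tail) above the exon (lower panel), with the position in nt from the 5′ end on the shared axis. The upstream window has 20012 uridylated of 46846 reads and the downstream window 97 of 6329. Their border, set by the fixed grid, falls inside the box C hexamer.

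The step between the windows was far steeper for tailed than for untailed reads. Uridylated reads were 206-fold more numerous in the upstream window, unique reads 7.40-fold and reads without a tail 4.31-fold (26834 against 6232). The upstream window thus held 99.5% of the uridylated reads counted in both and 88.1% of the unique reads. Added over both windows, U8 had 53175 unique reads of which 20109 carried a tail, or 37.8% (interval 37.4 to 38.2%). A read that lies across the border can be counted in each window, so these sums are not numbers of separate reads, and how reads were given to windows is not stated in the sources used here.

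Box C, the element by which the core proteins recognise a C/D snoRNA, lay on that border. The hexamer TGATGA occurred once in the sense strand of the exon, at nt 55 to 60, and not in its antisense strand. It was rare in the table, where 0.196% of the 1533 windows held it whole in the sense strand and 0.391% in the antisense strand. The tetramer CTGA of box D occurred in the exon at nt 116 to 119 and nt 130 to 133, without overlap with the hexamer, while 16.5% of all windows held it in the sense strand and 13.6% in the antisense strand. Neither U8 window held CTGA in the sense strand. These matches describe the sequence and do not show that a protein was bound there. The border is set by the fixed grid, and whether box C is linked to the step between the windows was not tested.

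For comparison, all pairs of listed windows that adjoin in 1 gene were set side by side. There were 88 such pairs, with a median absolute difference in U+ fraction of 7.37 percentage points (interquartile range 3.33 to 13.7). The 5′ window had the higher fraction in 50 pairs and the 3′ window in 38. SNORD118 differed by 41.2 percentage points, the second largest difference of all. The largest, 66.6 percentage points, belonged to the microRNA precursor listed as hsa-mir-98, with 68.8% in the 5′ and 2.17% in the 3′ window. The remaining snoRNA pair, in the U3 copy ENSG00000221461, went the other way, with 72.1% upstream and 84.7% downstream. These are descriptions, since the genes were picked on the same reads.

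**Figure D2:**
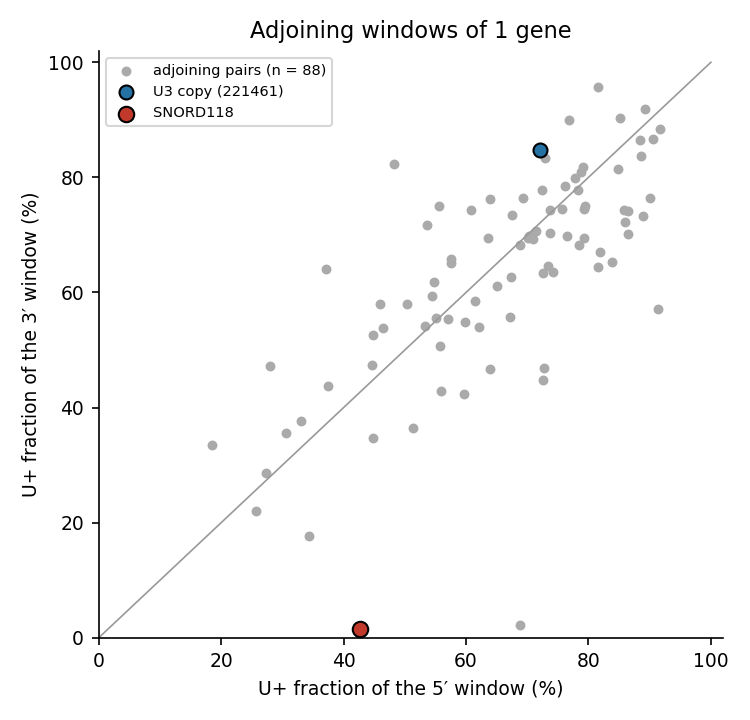
U+ fraction of the 5′ window (horizontal axis, %) against that of the adjoining 3′ window (vertical axis, %) for 88 pairs in 1 gene, with equality drawn as a line. SNORD118 lies far below the line at 42.7 and 1.53%, and the U3 copy above it at 72.1 and 84.7%.

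Among all listed windows the upstream U8 window ranked 7th both by unique and by uridylated reads, but 1391st by U+ fraction. The downstream window ranked 27th by unique reads, 414th by uridylated reads and 1532nd by U+ fraction, the second lowest of the table. The exon lies inside an annotated UTR of TMEM107, a protein-coding gene on the same strand, so a read from that mRNA would fall in the same windows. The table lists no window under the name TMEM107, but the authors' annotation ranks snoRNA before mRNA, and the table favours tailed windows. That absence therefore tells nothing about the source of these reads, which was not tested. No near-identical copy of either U8 window was found in the genome, where a copy matches at least 45 nt with at most 2 differences. With up to 5 differences there were 2 copies of the upstream and 4 of the downstream window.

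RNU3P3 had the lowest U+ fraction of all U3-type windows. The gene (ENSG00000252529, named SNORD3P3 in RefSeq) is a single exon of 130 nt at chr14:85738276-85738405 on the plus strand, and no other annotated gene overlapped its window. Its window, at 85738300 to 85738349, covered nt 25 to 74, and 997 of its 5923 unique reads were uridylated, or 16.8% (interval 15.9 to 17.8%). It ranked 28th of all windows by unique reads, 60th by uridylated reads and 1517th by U+ fraction. Of the 15 U3-type windows, it alone held 49.0% of the unique reads, 68.0% of the reads without a tail and 20.6% of the uridylated reads. Its depth was 2.99-fold that of the next U3-type window, and it had both the most tailed and the most untailed reads among these windows.

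The sequence of RNU3P3 is U3 in its first part only. Aligned with the 217 nt of SNORD3A, its exon matched nt 1 to 74 of U3 at 71 of 74 positions and showed no further alignment in its last 56 nt. The window ends on nt 74, the last base of that match. Within the window 47 of 50 bases (94.0%) were those of SNORD3A, and the substitutions, written as the SNORD3A base, its position from the 5′ end of U3 and the RNU3P3 base, are G33T, C70T and G71A. As the sequences printed above show, C70T and G71A lie side by side near the downstream edge, and the stretch between them and G33T is the same in both RNAs. A read that ends before position 70 and starts after position 33 would therefore have the same sequence in RNU3P3 and in functional U3. Such a read would match more than 1 place, and only uniquely mapped reads were counted.

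The RNU3P3 window also had 9 near-identical copies at other places of GRCh37, 55 copies when up to 5 differences were allowed, and 2 places that matched 45 nt without a difference. SNORD3A, SNORD3B-1, SNORD3B-2 and SNORD3C each differed from it by 3. Other U3-type windows had such copies too, 10 for ENSG00000212434 (70 with up to 5 differences), 5 for ENSG00000252299 (60) and 4 for SNORD3D. Those of SNORD3D lay in SNORD3B-1 and SNORD3B-2, with 1 difference each, and in SNORD3A and SNORD3C, with 2 each. The remaining 11 U3-type windows had none with at most 2 differences. The file counts uniquely mapped reads only, and functional U3 genes that are alike in sequence would share their reads and lose them. No SNORD3A, SNORD3B or SNORD3C window was listed. Whether reads of functional U3 or of other copies contribute to the counts of these 4 windows was not tested, and the listed gene is uncertain as their source.

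The other U3-type windows spread widely in U+ fraction. They were 13 windows listed as U3, from 12 genes, and 1 listed as SNORD3D, a symbol that RefSeq gives to a snoRNA of 217 nt. The annotation names 81 genes U3, and all 12 listed ones were among them. Over these 14 windows the U+ fraction ran from 42.4 to 96.2%, with a median of 77.7%, and unique reads from 21 to 1980. Pooled, 3838 of their 6155 unique reads were uridylated, or 62.4% (interval 61.1 to 63.6%). The interval of each of the 14 windows lay above that of RNU3P3. The table was selected for a high uridylation frequency. On the pooled counts all 14 windows would pass that selection and RNU3P3 would not. Their order against RNU3P3 is therefore at least partly built in, and nothing is read from it.

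**Figure D3:**
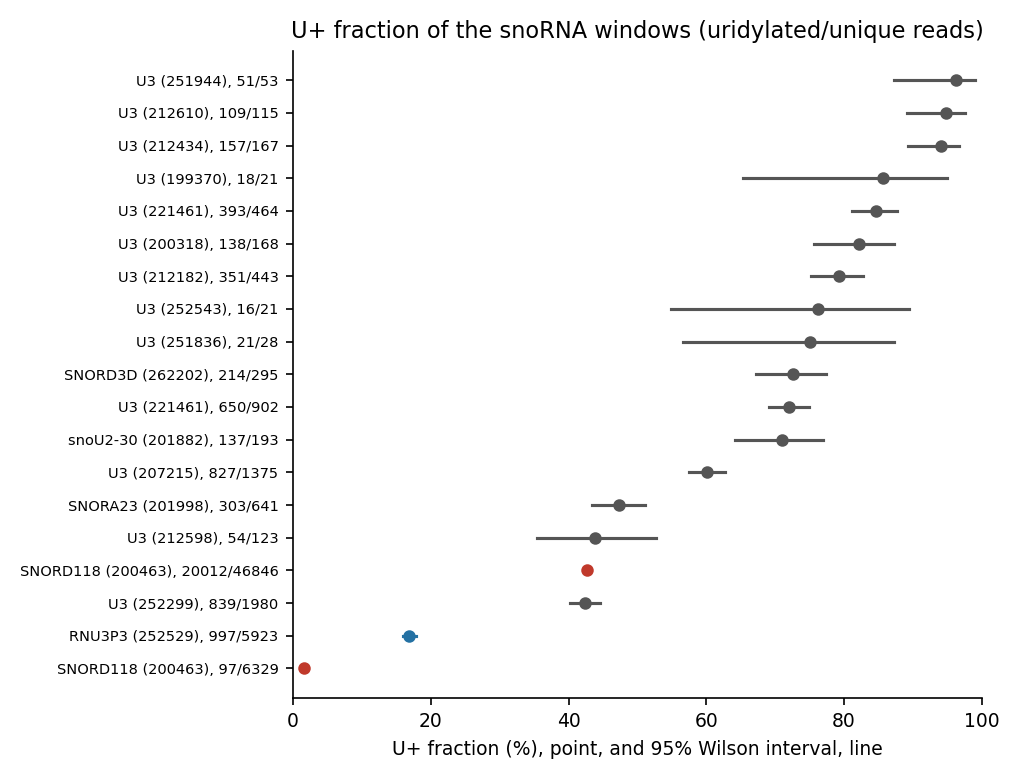
U+ fraction (points, %) with 95% Wilson intervals (lines) of the 19 snoRNA windows, each named with the last digits of its gene identifier and its uridylated and unique reads. RNU3P3 at 16.8% and the downstream SNORD118 window at 1.53% lie below all others, which run from 42.4 to 96.2%.

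Next to RNU3P3, a pair of copies had the most unique reads. The U3 copy ENSG00000252299 (chromosome 9, plus strand, 90989200 to 90989249) had a tail on 839 of 1980 unique reads, or 42.4% (interval 40.2 to 44.6%), close to the upstream U8 window. Like RNU3P3 it is a short copy, of 91 nt, and its window differed from SNORD3A at 3 of 50 bases. ENSG00000207215 (chromosome 8, plus strand, 98370500 to 98370549) had a tail on 827 of 1375, or 60.1% (interval 57.5 to 62.7%).

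The pair of windows of ENSG00000221461 (chromosome 8, minus strand) had tails on 650 of 902 reads (72.1%) at 124192700 to 124192749 and on 393 of 464 (84.7%) at 124192650 to 124192699. This copy shows where the choice of genes is close. By single windows RNU3P3, with 997 uridylated reads, came second in the class, ahead of 839 and 827 for the next windows. When windows of 1 gene were added, ENSG00000221461 reached 1043 and stood above RNU3P3.

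The highest fractions were in copies with few reads, though not all such copies were high. A window with few reads needs a higher fraction to pass the selection, so this link is at least partly built in. ENSG00000212598 (chromosome 3, plus strand) had 54 uridylated of 123 unique reads, or 43.9% (interval 35.4 to 52.7%). ENSG00000251944 (chromosome 8, minus strand) had 51 uridylated of 53 unique reads, or 96.2% (interval 87.2 to 99.0%). ENSG00000212610 (chromosome 1, minus strand) had 109 of 115, or 94.8% (interval 89.1 to 97.6%). ENSG00000212434 (chromosome X, plus strand) had 157 of 167, or 94.0% (interval 89.3 to 96.7%). The intervals of the last 3 copies overlap, and none overlaps that of SNORD118 or RNU3P3. In these copies nearly each read ended in a U tail. The other copies fell between these extremes. ENSG00000212182 (chromosome 2, minus strand) had 351 of 443, or 79.2% (interval 75.2 to 82.8%), and ENSG00000200318 (chromosome 15, minus strand) 138 of 168, or 82.1% (interval 75.7 to 87.2%). The windows of ENSG00000251836 (chromosome 10, minus strand, 21 of 28), ENSG00000199370 (chromosome 7, plus strand, 18 of 21) and ENSG00000252543 (chromosome 8, minus strand, 16 of 21) had too few reads to be placed in an order. SNORD3D (ENSG00000262202) had 214 of 295, or 72.5% (interval 67.2 to 77.3%), and its window differed from SNORD3A at 2 of 50 bases.

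All listed U3-type windows aligned within nt 1 to 113 of the 217 nt of U3. The U8 windows covered nt 7 to 56 and nt 57 to 106 of 134 nt. Position was not used to choose these windows. The table favours tailed windows, so the reads of parts in no listed window are unknown. Aligned with SNORD3A, the 15 windows began between nt 1 and nt 67 of U3 (median 27) and ended between nt 50 and nt 113 (median 74). Nt 48 to 57 were covered by the most windows, 13 of 15. No listed window reached nt 114 to 217, although 8 of the 13 exons found in the annotation aligned past nt 113. The other 5 exons, RNU3P3 among them, did not align past it. Identity with SNORD3A ranged from 77.1 to 96.0% (median 90.0%), over 31 to 50 aligned nt. The 5′ part of U3 holds its pairing with the ribosomal RNA precursor, and the 3′ part the boxes that bind the core proteins.

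**Figure D4:**
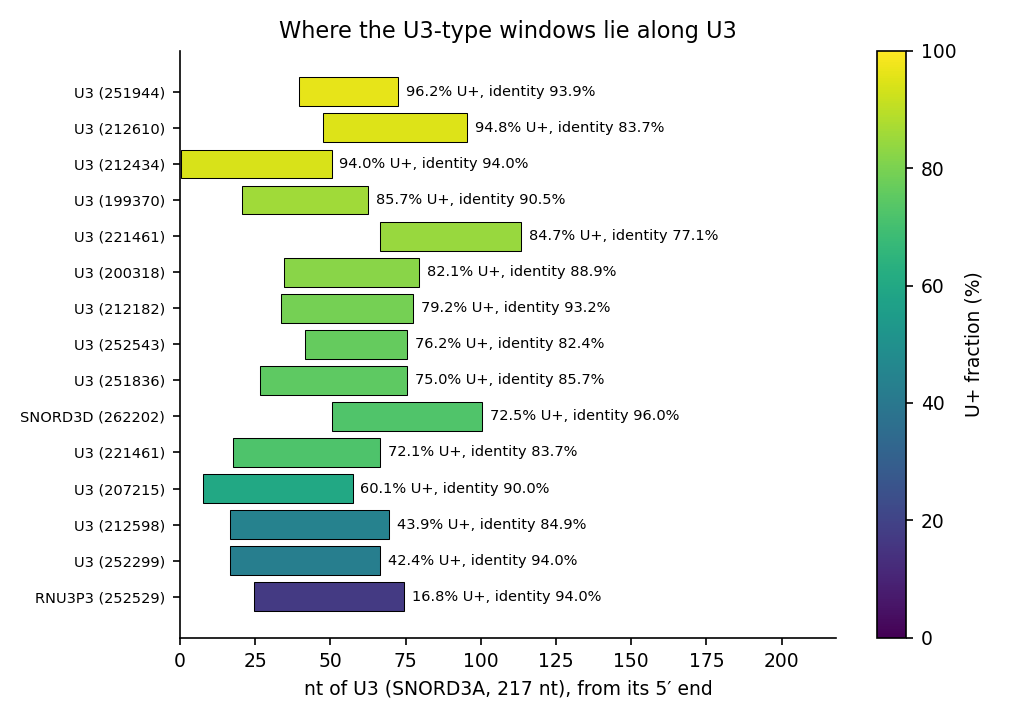
Stretch of U3 (nt from the 5′ end of SNORD3A, 217 nt) to which each of the 15 U3-type windows aligned, coloured by U+ fraction and labelled with it and with the identity to SNORD3A. All stretches lie between nt 1 and nt 113, and RNU3P3, the lowest at 16.8%, spans nt 25 to 74.

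The snoRNA windows outside U8 and U3 reached past the annotated 3′ ends of their genes. SNORA23, an H/ACA box snoRNA that guides pseudouridylation and lies inside IPO7, had its window (chromosome 11, plus strand, 9450500 to 9450549) over the last 2 nt of the exon and 48 nt past its annotated 3′ end, and 303 of its 641 unique reads were tailed, or 47.3% (interval 43.4 to 51.1%). The gene listed as snoU2-30 (chromosome X, minus strand, 20154150 to 20154199) had 16 nt of its window in the exon and 34 nt past the 3′ end, and 137 of 193 reads were tailed, or 71.0% (interval 64.2 to 76.9%). No window of U8 or of an annotated U3-type gene ran past the annotated 3′ end.

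Within the snoRNA class, SNORD118 held 79.2% of the uridylated reads (interval 78.7 to 79.7%) and 80.5% of the unique reads (interval 80.2 to 80.8%), so its shares of both kinds of reads were close. RNU3P3 held 3.93% (interval 3.70 to 4.17%) and 8.96% (interval 8.75 to 9.18%). The 16 other windows, from 15 genes, held 16.9% of the uridylated and 10.6% of the unique reads, and their median U+ fraction was 75.6%. Of them 15 had a higher U+ fraction than the upstream U8 window, and for 14 the intervals did not overlap with it. Most of the whole table was higher too, as the upstream U8 window ranked 1391st of 1533 windows by U+ fraction. All 16 other snoRNA windows lay above RNU3P3, which ranked 1517th in the same order, so these counts are not particular to the class. The 16 windows would also pass the selection of the table on the pooled counts, and RNU3P3 would not. Their order against RNU3P3 is therefore at least partly built in.

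**Figure D5:**
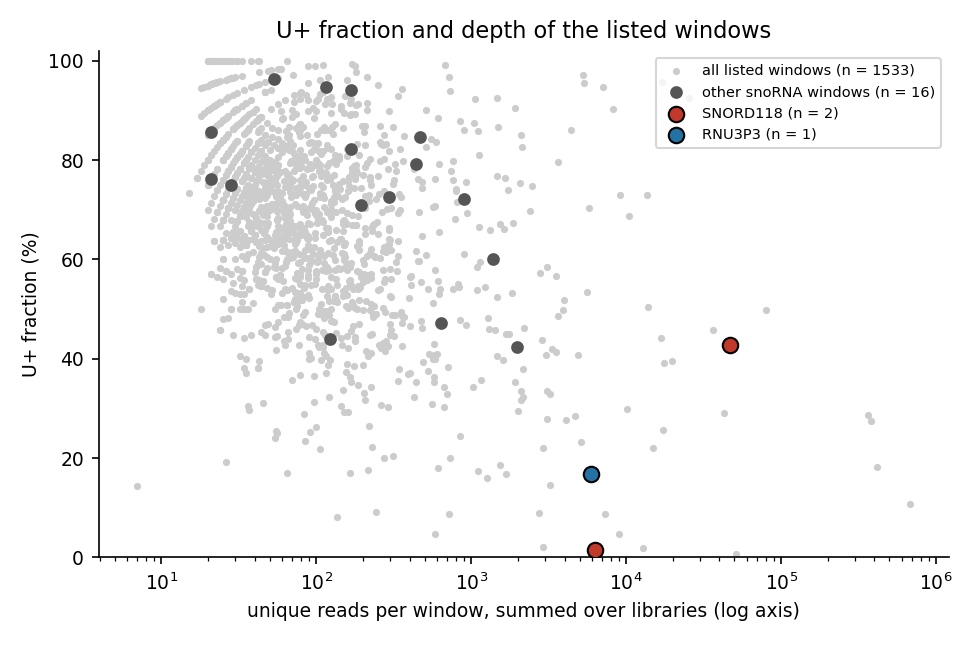
U+ fraction (%) against unique reads per window (log axis, summed over the libraries) for 1533 windows, with snoRNA windows in dark grey and SNORD118 and RNU3P3 in colour. The upstream SNORD118 window stands at 46846 reads and 42.7%, while RNU3P3 and the downstream SNORD118 window have similar depth, 5923 and 6329 reads, at 16.8 and 1.53%.

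The low fractions can be set beside the selection that made the table, which kept windows likely to have a uridylation frequency over 0.25. With a flat prior and the counts as summed, the posterior probability of such a frequency was at least 0.95 in 96.8% of all windows. In the snoRNA class 17 of 19 windows reached it. Those that did not were RNU3P3 and the downstream U8 window, so 2 of the 3 windows described here are among 49 windows of the table that the pooled counts would not select. The authors applied the rule to each library and multiplied the results, and counts per library were not used here. Since the windows were chosen on the same reads, nothing is read from this count.

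Further properties were not used to choose the windows. Runs of T in the genome matter because a tail is called only where the genome does not encode it. The longest encoded run, over the window and 50 nt downstream of it, was 2 for the upstream U8 window, 3 for the downstream one and 4 for RNU3P3. A run of at least 4 was found for 11 of 19 snoRNA windows and 17.9% of all windows.

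The U8 and U3 windows were poorer in G and C than most of the table. GC content was 52.0% in the upstream and 42.0% in the downstream U8 window, 34.0% in RNU3P3, and had a median of 37% in the other snoRNA windows and 72.0% in all windows. The folding energy predicted for the 50 nt alone was -14.9 kcal/mol for the upstream U8 window, -11.9 for the downstream one and -9.9 for RNU3P3. The median was -7 kcal/mol in the other snoRNA windows and -17.3 in all windows. Folding energy moves with GC content, so these measures are not separate, and a window of 50 nt does not hold the fold of the whole RNA.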

How the data were processed

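The data are 3 CLIP replicates, 1 group, from the HEK293 (HEK293T-Rex in the methods) line with overexpressed DIS3L2 D391N. RNA was trimmed with RNase T1, which cuts after G, and fragments were selected by size, so the ends of reads depend on sequence. The authors mapped reads to GRCh37/hg19 with Segemehl, removed T runs from the 3′ ends of unmapped reads and mapped these again, and deposited raw counts per 50 nt window of uniquely mapped reads and, among them, of reads with at least 4 untemplated T at the 3′ end, both summed over libraries. Their stated rule keeps windows with at least 20 reads and a high posterior uridylation frequency, although the table lists windows with as few as 7 unique reads. This favours tailed windows and drops reads that map to several places. The submitters' processing notes also name Subread, with no role given.

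From these counts the U+ fraction and 95% Wilson intervals were computed (scipy 1.17.1). With 1 group and pooled counts, and with genes chosen on their uridylated reads, no test between windows was made. Windows were read as 1-based and placed in GENCODE release 44 exons mapped to GRCh37, where the transcripts of 18 of 19 snoRNA windows were found. SNORD3D was placed by its alignment alone. U3-type windows (symbols U3, RNU3P3 and SNORD3) were aligned to the first 217 nt of SNORD3A, the RefSeq length, by local alignment (Biopython 1.88, match 2, mismatch -2, gap -5 and -1). Copies were searched with blastn 2.17.0 (word size 7) and folding energies computed with RNAfold 2.7.2. The posterior was the tail of a beta distribution. The table holds 2686158 unique reads, and depth per library is unknown. The alignment and the posterior were tested on simulated data.

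Members, measures and the gene list were chosen with earlier results of these data known. Every snoRNA window is accounted for. Alternatives varied the interval, the joining of windows, a minimum of 100 unique reads, the background, the window origin and the copy, identity and run limits. Folding energy, GC content, adjoining pairs and the posterior were chosen with the table in view.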

Additional observations from a re-analysis of the deposited data

How the results depend on the processing

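Each alternative value was labelled only as unchanged or moved, and reversals of order were not looked for. Adding the windows of 1 gene, which is not among these alternatives, put ENSG00000221461 (1043 uridylated reads) above RNU3P3 (997). Of 30 alternative values for 21 results, 13 were labelled unchanged and 17 moved. Interval bounds were judged against the width of the interval. Shares and the SNORD118 fraction were judged against the counting interval, and counts against a factor of 1.5. Medians, positions and identities were labelled moved on any change. With the deepest window of each gene only, the U+ fraction of SNORD118 was 42.7% in place of 37.8%, its share of the uridylated reads of the class 80.4% in place of 79.2% and of the unique reads 79.0% in place of 80.5%. Against U3-type genes only, RNU3P3 held 20.6% of the uridylated reads. The median U+ fraction of the other snoRNA windows was 72.3% with at least 100 unique reads, 75% with 1 window per gene and 77.7% for U3-type genes only. If window starts count from 0, the windows begin at nt 6 and nt 56 of U8 and nt 26 of RNU3P3. An encoded run of at least 3 T was found for 17 and of at least 5 T for 4 of the 19 windows. With no difference allowed 18 of 19 windows had no near-identical copy, and with up to 5 differences 9 had none. Libraries were pooled by the authors, so leaving out a replicate could not be done, and no paired analysis was possible because the design has 1 group and the columns carry no replicate.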
